A study of Mus musculus with 6 samples.

Results

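The glucocorticoid receptor (GR, gene *Nr3c1*) was examined together with 8 genes that supply its ligand, compete for it, hold the receptor in a hormone-ready state or carry its signal to the transcription machinery. The 9 genes were the receptors *Nr3c1* and *Nr3c2*, the enzymes *Hsd11b1* and *Hsd11b2*, the chaperone partners *Fkbp4* and *Ptges3*, the coactivators *Ncoa1* and *Ncoa2* and the corepressor *Ncor1*. They were taken by their symbols from the 54532 genes of the deposited counts, and all 9 were among the 16568 genes with enough reads to be tested. The lungs came from 3 GRdim/dim and 3 GR+/+ mice of the background 129/SvEv x C57BL/6, the wild-type mice being littermates. GRdim/dim mice carry in all their cells a germline point mutation of *Nr3c1*, located in the part of GR that contacts DNA, which impairs pairing of receptor molecules. All mice were 10 to 16 weeks old, underwent hemorrhagic shock (HS) of 1 h with the mean arterial pressure held at 35 mmHg, and were then resuscitated over 4 h with re-transfused blood, fluids, norepinephrine and ventilation under anesthesia. The GR+/+ mice were 2 females and 1 male, and the GRdim/dim mice 1 female and 2 males. Both genotypes had undergone shock, and lungs without shock were not analysed here, so that the comparison is of genotypes after HS and not of HS itself.

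GR is a nuclear receptor for cortisol and corticosterone. Without hormone it is held in the cytosol by HSP90 and its cochaperones, and with hormone it moves to the nucleus, binds DNA as a dimer or a monomer and recruits coactivators or corepressors. The mineralocorticoid receptor, encoded by *Nr3c2*, binds the same glucocorticoids with high affinity. In tissues, 11β-hydroxysteroid dehydrogenase type 1 regenerates active glucocorticoid from its inert 11-keto form, and type 2 converts the active form back. The lung is a classical glucocorticoid target, and fetal lung maturation depends on GR.

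The 6 libraries, one per lung and made from poly(A)-captured RNA, held 15687734 to 32082940 counted reads. Levels are given as CPM, read counts relative to the size of the library after TMM scaling, and levels of different genes are compared only as CPM per kb of gene length. Differences are log2 fold changes of GRdim/dim against GR+/+ from the quasi-likelihood test of edgeR, and *p*-values were adjusted by Benjamini-Hochberg over all genes tested. Called genes had an adjusted *p*-value below 0.05 together with a log2 fold change larger than 0.5 in size. For single values an exact permutation test was used, which reaches *p* = 0.1 at best with 3 lungs in each genotype. The tissue label was checked with markers, and the libraries held 15106 to 23572 CPM of 5 alveolar type 2 genes and 15077 to 29504 CPM of 3 club cell genes. The summed markers of B cells (49.2 to 74.8 against 21.2 to 49.2 CPM), T cells (15.5 to 22.0 against 5.44 to 12.4 CPM) and NK cells (13.2 to 19.2 against 3.47 to 10.5 CPM) were higher in every GRdim/dim library than in every GR+/+ library, for B cells by a margin lost in rounding, and those of alveolar macrophages were lower (164 to 258 against 327 to 365 CPM). Most of the alveolar macrophage sum came from *Chil3* (means of 253 CPM in GR+/+ and 138 CPM in GRdim/dim lungs). By log2 fold change 4 of these 5 markers were lower and 1 was higher. *Siglecf* had means of 3.37 and 4.22 CPM, and *Mrc1* was nearly level at 47.5 and 46.5 CPM. The part of these cell types in the values below was not tested, and in whole lung a smaller number of cells of a type cannot be told apart from less RNA per cell. The library of GRdim/dim replicate 3 stood apart by gene length. In it, the 2529 tested genes of at least 8000 bases lay a median of 0.51 on the log2 scale below the 3170 genes of at most 2000 bases (log2 CPM centred on the mean of each gene), whereas this difference of long and short genes was -0.01 to 0.22 in the other 5 libraries.

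None of the 9 genes was called (0 of 9 with edgeR), where 0.169% of all genes tested were, 0.0724% as higher and 0.0966% as lower in GRdim/dim lungs. Before adjustment, edgeR gave 0 of the 9 genes a *p*-value under 0.05, against 9.6% of all genes. DESeq2, the alternative tool, called 0 of 9 (1.71% of all genes) and gave *Hsd11b1* alone an unadjusted *p*-value under 0.05 (10.2% of all genes). The log2 fold changes lay between -0.60 (*Hsd11b2*) and 0.31 (*Ptges3*), with 6 below and 3 above 0. Their median size without sign was 0.23, and that of all genes tested was 0.21. The test that misses its threshold does not show equal levels, and the 95% intervals below give the differences that the data still allow. The intervals of 8 genes lay between 0.555 and 1.62 times the GR+/+ level, and that of *Hsd11b2*, the gene with the fewest reads, reached from 0.276 to 1.57 times.

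**Figure D1:**
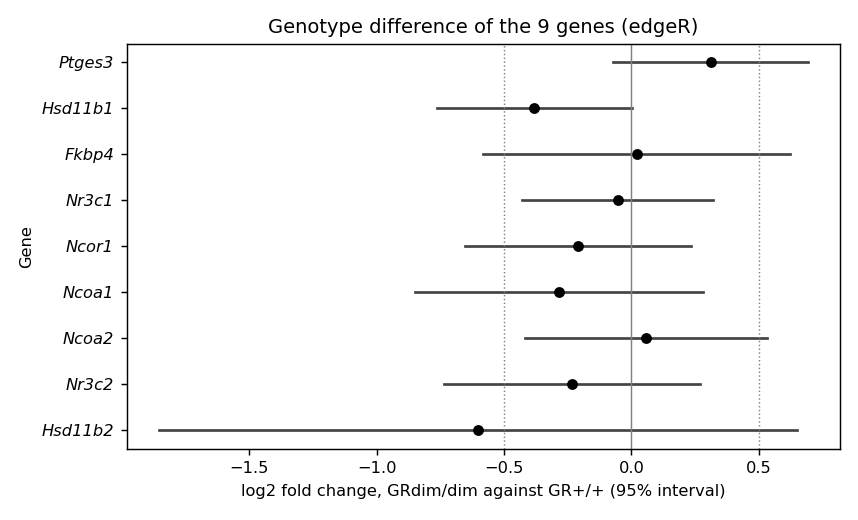
Log2 fold change of GRdim/dim against GR+/+ lungs for the 9 genes (points) with 95% intervals (lines) from the edgeR fit over 6 libraries. The solid vertical line marks 0 and the dotted lines 0.5 in either direction; every interval includes 0, that of *Hsd11b1* ends at 0.00, and the interval of *Hsd11b2* is the widest, from -1.85 to 0.65.

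*Nr3c1*, the mutated gene (ENSMUSG00000024431, chromosome 18 of mm10 from 39410545 to 39491301, minus strand), was expressed at 138, 145 and 162 CPM in the GR+/+ libraries of replicates 1, 2 and 3. The GRdim/dim libraries had 159, 149.5 and 120 CPM, so 2 of the 3 lay within the GR+/+ range and replicate 3 below it. The means were 148 ± 12.2 and 143 ± 20.2 CPM (SD, n = 3 each). The 95% interval of the log2 fold change of -0.05 ran from -0.43 to 0.32 (edgeR, unadjusted *p* = 0.756, adjusted *p* = 0.961). Transcript levels of the receptor between 0.742 and 1.25 times those of GR+/+ lungs therefore remained possible. Since counts per gene cannot reveal a single changed base, they are no check of the genotype labels. Without GRdim/dim replicate 3, the library with fewer reads on long genes, the log2 fold change was 0.06, and without GR+/+ replicate 3 it was 0.01.

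*Nr3c2*, the gene of the mineralocorticoid receptor (chromosome 8 from 76899442 to 77245012, plus strand), was far less abundant. It had 18.2, 17.4 and 14.8 CPM in GR+/+ and 13.9, 17.3 and 11.6 CPM in GRdim/dim libraries, from 179 to 467 reads. Replicates 1 and 3 of GRdim/dim lay below all GR+/+ libraries, and replicate 2 lay among them. Its log2 fold change was -0.23 (95% interval -0.74 to 0.27, edgeR adjusted *p* = 0.821). The antisense gene *Gm10649* covers 247 bases of its exons, had 0 to 7 reads, and cannot be told apart where strand was not used in counting.

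Per kb of gene length, *Nr3c1* stood at 20.0 ± 1.65 CPM per kb in GR+/+ and 19.2 ± 2.72 CPM per kb in GRdim/dim lungs (SD, n = 3 each), and *Nr3c2* at 2.59 ± 0.269 and 2.20 ± 0.444 CPM per kb. The ratio of GR to mineralocorticoid receptor transcripts was 7.67 in GR+/+ and 8.75 in GRdim/dim lungs (geometric means). On the log2 scale the ratio was 2.72, 2.86 and 3.24 in GR+/+ and 3.31, 2.91 and 3.17 in GRdim/dim libraries. The genotypes overlapped (difference 0.19, two-sided exact permutation test, *p* = 0.4, or 0.6 after adjustment over the 3 ratios computed). Of the 6 steroid receptor genes in the list, all were tested, none was called, and none had an unadjusted *p*-value under 0.05 with edgeR. *Esr1*, an estrogen receptor gene, was the nearest (log2 fold change 0.61, standard error 0.42, edgeR adjusted *p* = 0.711) at a level of 2.37 ± 0.984 and 3.58 ± 1.25 CPM in GR+/+ and GRdim/dim lungs (SD, n = 3 each).

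*Hsd11b1* encodes the enzyme that regenerates active glucocorticoid inside cells (ENSMUSG00000016194, chromosome 1 from 193221634 to 193264075, minus strand). Among the 9 genes, only *Hsd11b1* had libraries without overlap between genotypes. Of all genes tested 14.8% showed no overlap, so 1 such gene of 9 is not more than that share. RefSeq (GRCm38.p6) places the start of one of its transcripts inside this span. The 250 bases before that start and the 50 after it, at chr1:193242311-193242610 on the minus strand, are shown because this is the gene with separated genotypes; the capitals mark the only CCAAT box on either strand, which begins 72 bases before the start.
Hsd11b1: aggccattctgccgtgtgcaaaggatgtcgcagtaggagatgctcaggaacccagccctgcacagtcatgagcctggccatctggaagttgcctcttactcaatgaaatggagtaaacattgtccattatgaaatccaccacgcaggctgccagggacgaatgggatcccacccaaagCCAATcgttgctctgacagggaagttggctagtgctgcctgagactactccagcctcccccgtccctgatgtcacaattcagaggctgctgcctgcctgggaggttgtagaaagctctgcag

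A CCAAT box occurs on either strand in 37.4% of the 32851 promoter windows of the same length. The full glucocorticoid response element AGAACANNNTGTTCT, a palindrome of which AGAACA is one arm, was not found in this window and occurs in 3 of all windows. Among the 7 windows of 6 genes that were matched, the single arm AGAACA was found on either strand in 1 of the 2 windows of *Ncor1* and in that of *Ncoa1*, and it is present in 19.0% of all windows. These letters describe the windows only, and no measurement of binding was made in these lungs.

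The level of *Hsd11b1* was 279, 284 and 249 CPM in GR+/+ libraries and 217, 178 and 228 CPM in GRdim/dim libraries. Every GRdim/dim library lay below every GR+/+ library, as did 7.05% of all genes tested, and 14.8% of all genes showed no overlap in either direction. The means of 271 ± 18.6 and 208 ± 26.4 CPM (SD, n = 3 each) stood in a ratio of 0.768. This is a log2 fold change of -0.38 (standard error 0.17, 95% interval -0.76 to 0.00). Its unadjusted *p*-value was 0.0505 and its adjusted *p*-value 0.521 in edgeR's quasi-likelihood test, and the exact permutation test gave *p* = 0.1, the smallest possible. Leaving out single libraries gave log2 fold changes from -0.45 to -0.28, and the adjusted *p*-value ranged from 0.375 to 0.846 over all 13 alternatives. Each library had 3536 to 7853 reads of the gene. The summed fibroblast markers, from a cell type known to express *Hsd11b1*, overlapped between genotypes (1003 to 2363 CPM in GR+/+ and 1579 to 2112 CPM in GRdim/dim libraries). Those of alveolar macrophages, mostly *Chil3*, were lower in every GRdim/dim library (164 to 258 against 327 to 365 CPM), and those of B, T and NK cells higher. The part of any cell type in the level of *Hsd11b1* was not tested.

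*Hsd11b2*, the gene of the inactivating enzyme (chromosome 8 from 105518755 to 105523988, plus strand), was the least abundant of the 9, with 26 to 116 reads. Its level was 6.93, 2.46 and 2.03 CPM in GR+/+ and 2.59, 1.08 and 3.87 CPM in GRdim/dim libraries. GR+/+ replicate 1 was the highest of all and GRdim/dim replicate 2 the lowest. By *Xist* and Y-linked transcripts, the former was the only male GR+/+ library and the latter the only female GRdim/dim library. Male libraries had 6.93 CPM in GR+/+ and 2.59 and 3.87 CPM in GRdim/dim lungs. Female libraries had 2.46 and 2.03 CPM in GR+/+ and 1.08 CPM in GRdim/dim lungs. The sexes were not tested separately. The log2 fold change of -0.60 (standard error 0.56, edgeR adjusted *p* = 0.813) turned to 0.16 without GR+/+ replicate 1. With a covariate for sex-linked expression, the ratio of *Xist* to Y-linked transcripts, it was -1.13 (standard error 0.36, unadjusted *p* = 0.0112, adjusted *p* = 0.418 from edgeR) and still not called.

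Transcripts of the activating enzyme were more abundant per kb than those of the inactivating one in every library. The log2 ratio of *Hsd11b1* to *Hsd11b2* per kb was 4.10, 5.59 and 5.66 in GR+/+ and 5.13, 6.03 and 4.64 in GRdim/dim libraries, or 34.7-fold and 38.5-fold as geometric means. The size of this ratio depends on the gene lengths used, 4251 and 1840 bases, where the longest transcripts have 1978 and 1840 bases. The difference of 0.15 was within the spread between replicates (two-sided exact permutation test, *p* = 0.8, also after adjustment over 3 ratios). This test did not take sex into account. Male libraries had 4.10 in GR+/+ against 5.13 and 4.64 in GRdim/dim lungs. Female libraries had 5.59 and 5.66 against 6.03. The difference turned to -0.36 without GR+/+ replicate 1, the only male of its genotype. It turned to -0.23 without GRdim/dim replicate 2, the only female of its genotype.

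**Figure D2:**
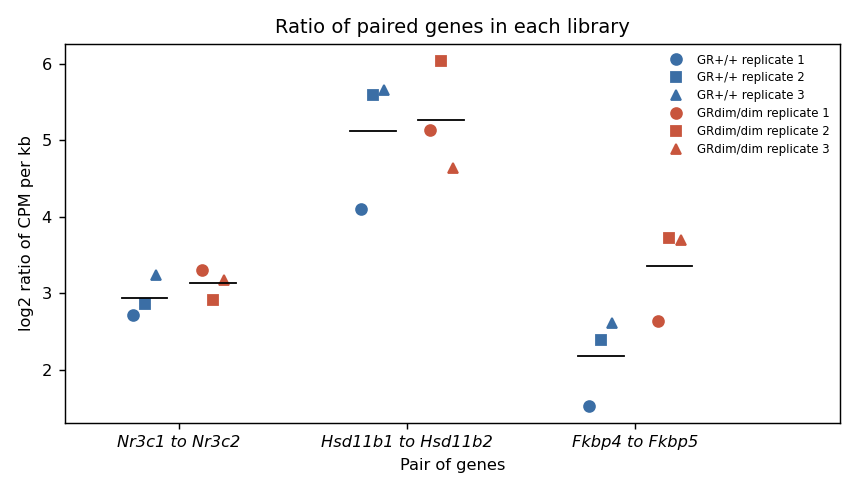
Log2 ratio of CPM per kb of the paired genes in each library, with the mean of each genotype as a black line. The ratio of *Fkbp4* to *Fkbp5* lies between 1.53 and 2.61 in GR+/+ and between 2.64 and 3.72 in GRdim/dim libraries, while the genotypes overlap in the other two ratios. The ratio to *Fkbp5* was chosen with the lower level of *Fkbp5* in these lungs already known.

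Of 15 genes of steroid conversion and supply, 8 were tested, none was called, and none had an unadjusted *p*-value under 0.05 with edgeR. After *Hsd11b1*, the nearest to the threshold was *Abcb1a*, which encodes a drug and steroid efflux pump (38.4 ± 5.48 CPM in GR+/+ and 25.7 ± 11.7 CPM in GRdim/dim lungs, SD, n = 3 each). Its log2 fold change was -0.57 (standard error 0.30, edgeR adjusted *p* = 0.595). *Cyp11a1*, whose enzyme starts steroid synthesis from cholesterol, had 8 to 19 reads per library (0.454 ± 0.157 and 0.823 ± 0.359 CPM, SD, n = 3 each), and a log2 fold change of 0.87 (standard error 0.55, edgeR adjusted *p* = 0.688). The genes of the last steps of corticosteroid synthesis, *Cyp21a1*, *Cyp11b1* and *Cyp11b2*, had 0 reads in every library. A count of 0 allows up to 3 reads, or 0.0935 to 0.191 CPM depending on the library, for counting error only. Another 4 genes with at most 6 reads were not tested, *Srd5a2*, *Cyp17a1*, *Hsd3b1* and *Serpina6*.

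*Fkbp4* encodes FKBP52, an immunophilin that links the receptor complex to transport into the nucleus and favors hormone binding (chromosome 6 from 128429735 to 128438677, minus strand). It was expressed at 130, 123 and 176 CPM in GR+/+ and 89.3, 146 and 200 CPM in GRdim/dim libraries. The GRdim/dim libraries held both the lowest and the highest value. The means were 143 ± 28.9 and 145 ± 55.3 CPM (SD, n = 3 each), and the log2 fold change of 0.02 had a 95% interval from -0.58 to 0.62 (edgeR adjusted *p* = 0.990). It was 0.28 without GRdim/dim replicate 1 and -0.28 without GRdim/dim replicate 3, so single libraries set its sign.

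*Ptges3* encodes p23, a cochaperone that stabilizes the hormone-binding state of the receptor on HSP90 and is also named prostaglandin E synthase 3 (chromosome 10 from 128058954 to 128077272, plus strand). It had 153, 159 and 200 CPM in GR+/+ and 215, 224 and 196 CPM in GRdim/dim libraries. Replicates 1 and 2 of GRdim/dim lay above all GR+/+ libraries, and replicate 3 lay just below GR+/+ replicate 3. The log2 fold change of 0.31 (standard error 0.17, 95% interval -0.07 to 0.69) was the highest of the 9 genes and was not called (unadjusted *p* = 0.0996, adjusted *p* = 0.618 from edgeR). Without single libraries it ranged from 0.24 to 0.44. Windows of 31 bases that also occur in other genes make up 23.5% of its transcript, nearly all of them shared with the pseudogene *Ptges3-ps*, which itself had 182 to 511 reads, so the split of reads between the gene and its copy is uncertain. In the other 8 genes such windows make up at most 3.23% of the transcript.

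*Fkbp5* encodes FKBP51, which competes with FKBP52 for the receptor complex and lowers hormone binding, and is itself induced by glucocorticoids. It is not one of the 9 genes, and was known from earlier results of these data to be lower in GRdim/dim lungs. Its level was 152, 79.4 and 97.6 CPM in GR+/+ and 48.6, 37.4 and 52.2 CPM in GRdim/dim libraries. The log2 fold change was -1.25 (standard error 0.25), with an adjusted *p*-value of 0.103 in edgeR, which did not call it, and 0.000702 in DESeq2, which did. The log2 ratio of *Fkbp4* to *Fkbp5* per kb was 1.53, 2.39 and 2.61 in GR+/+ and 2.64, 3.72 and 3.70 in GRdim/dim libraries, that is 4.53-fold and 10.2-fold as geometric means. Every GRdim/dim library lay above every GR+/+ library, by a margin as small as that from 2.61 to 2.64 (difference 1.17, two-sided exact permutation test, *p* = 0.1, the smallest possible, and 0.3 after adjustment over the 3 ratios). *Fkbp4* itself had a log2 fold change of 0.02, as given above. Because the ratio was chosen with the lower level of *Fkbp5* already known, its direction and this test are not independent evidence.

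Of the 21 chaperone and immunophilin genes, all were tested and none was called. By the unadjusted edgeR *p*-value (under 0.05), 1 was higher (4.91% of all genes) and 1 lower (4.68% of all genes). The lower one was *Fkbp5*. The higher one was *Stub1*, which encodes the ubiquitin ligase CHIP of HSP70 and HSP90 clients, with 40.8, 45.5 and 37.9 CPM in GR+/+ and 38.9, 66.5 and 72.5 CPM in GRdim/dim libraries. GRdim/dim replicate 1 was inside the GR+/+ range (log2 fold change 0.52, standard error 0.23, edgeR adjusted *p* = 0.518). *Cdc37*, the gene of a kinase cochaperone of HSP90, had means of 136 ± 10.9 and 104 ± 20.5 CPM in GR+/+ and GRdim/dim lungs (SD, n = 3 each). Its log2 fold change was -0.39 (standard error 0.18, edgeR adjusted *p* = 0.543). The median log2 fold change of the 21 genes was 0.14, with 17 above 0 and 4 below, and that of all genes tested was 0.01, with 8439 above 0 and 8129 below. The summed CPM of the list overlapped between genotypes (4725 to 7165 in GR+/+ and 5630 to 9305 in GRdim/dim libraries).

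*Ncoa1* and *Ncoa2* encode SRC-1 and GRIP1, members of the p160 family that bind the hormone-occupied receptor and bring in histone acetyltransferases. GRIP1 is also known to act in repression by GR. *Ncoa1* (chromosome 12 from 4247362 to 4477182, minus strand) had 59.8, 44.4 and 53.7 CPM in GR+/+ and 54.5, 48.2 and 26.8 CPM in GRdim/dim libraries. *Ncoa2* (chromosome 1 from 13139105 to 13374083, minus strand) had 79.0, 61.8 and 69.6 CPM in GR+/+ and 81.6, 86.1 and 50.9 CPM in GRdim/dim libraries. In both genes GRdim/dim replicate 3 was the lowest of the 6 libraries. The other GRdim/dim libraries lay within the GR+/+ range for *Ncoa1* and above it for *Ncoa2*. The log2 fold changes were -0.29 for *Ncoa1* (standard error 0.25, 95% interval -0.85 to 0.28, edgeR adjusted *p* = 0.800) and 0.06 for *Ncoa2* (standard error 0.21, 95% interval -0.42 to 0.53, edgeR adjusted *p* = 0.968). Without GRdim/dim replicate 3 they were -0.04 and 0.26.

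*Ncor1*, the gene of a corepressor that recruits histone deacetylase 3 to nuclear receptors (chromosome 11 from 62316426 to 62458541, minus strand), had 185, 158 and 194 CPM in GR+/+ and 166, 183 and 116 CPM in GRdim/dim libraries. Again replicate 3 of GRdim/dim was the lowest and the other 5 libraries overlapped. Its log2 fold change was -0.21 (standard error 0.20, 95% interval -0.65 to 0.23, edgeR adjusted *p* = 0.815), and it was -0.04 without GRdim/dim replicate 3. The opposite-strand gene *Pigl* shares 82 bases with exons of *Ncor1* and had 111 to 243 reads.

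GRdim/dim replicate 3 was thus the lowest of the 6 libraries in 5 of the 9 genes, *Nr3c1*, *Nr3c2*, *Ncoa1*, *Ncoa2* and *Ncor1*, whereas it was the lowest in 23.4% of all genes tested. These 5 are the longest of the 9, with gene lengths of 6474 to 15642 bases. The 4 shorter genes, of 1840 to 4251 bases, were not lowest there, and *Fkbp4* was highest there. When the trend of each library with gene length was removed in the fit, an alternative chosen only after seeing the data, the log2 fold changes were -0.03 for *Nr3c1*, -0.21 for *Nr3c2*, -0.26 for *Ncoa1*, 0.14 for *Ncoa2*, -0.13 for *Ncor1* and -0.38 for *Hsd11b1*. The unadjusted *p*-value of *Hsd11b1* was then 0.0347 and its adjusted *p*-value 0.449 with edgeR.

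**Figure D3:**
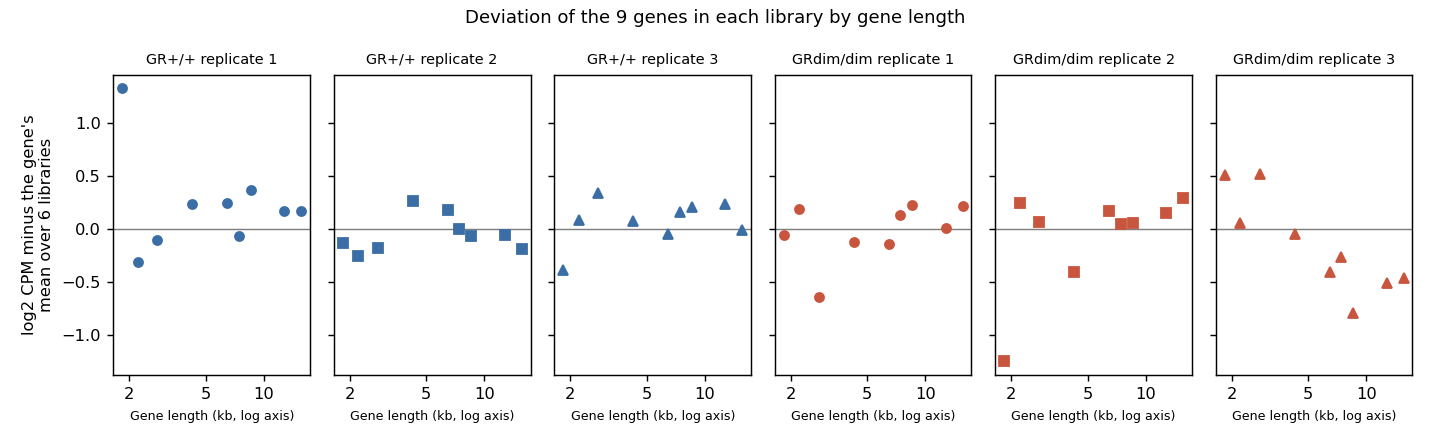
Log2 CPM of each of the 9 genes minus its mean over the 6 libraries, plotted for each library against the gene length in kb on a log axis. In GRdim/dim replicate 3 the 5 longest genes lie below 0 by 0.27 to 0.79 and *Fkbp4* and *Hsd11b2* above it by 0.52 and 0.51, while *Ptges3* lies at 0.05 and *Hsd11b1* at -0.05; the high point of GR+/+ replicate 1 and the low point of GRdim/dim replicate 2 are *Hsd11b2*.

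Of 18 coactivator genes, all were tested and none was called, and 1 had an unadjusted *p*-value under 0.05 with edgeR, where 9.6% of all genes did. This was *Ep300*, the gene of the histone acetyltransferase p300, with 161, 138 and 144 CPM in GR+/+ and 127, 117 and 83.1 CPM in GRdim/dim libraries. Its GRdim/dim libraries all lay below the GR+/+ libraries, as in 7.05% of all genes (log2 fold change -0.44, standard error 0.19, unadjusted *p* = 0.0428, adjusted *p* = 0.497 from edgeR). *Crebbp*, the gene of the related CBP, had a log2 fold change of -0.29 (standard error 0.18, edgeR adjusted *p* = 0.681), and *Kat2b*, the gene of the acetyltransferase PCAF, one of 0.34 (standard error 0.19, edgeR adjusted *p* = 0.635). The median of the 18 genes was -0.07.

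Of 9 corepressor genes, all were tested and none was called, and their median log2 fold change was 0.03. *Hdac3*, the deacetylase gene of the *Ncor1* complex, was higher in every GRdim/dim than in every GR+/+ library, where 14.8% of all genes did not overlap in either direction (50.7, 52.6 and 46.8 CPM in GR+/+ and 62.2, 56.5 and 69.8 CPM in GRdim/dim libraries), its log2 fold change being 0.33 (standard error 0.16, edgeR adjusted *p* = 0.571). *Tbl1xr1*, which encodes another subunit, had a log2 fold change of 0.19 (standard error 0.17, edgeR adjusted *p* = 0.796). None of 8 nuclear transport genes was called or had an unadjusted *p*-value under 0.05, and the nearest were *Xpo1*, *Tnpo1* and *Dynll1* with log2 fold changes of 0.25, 0.18 and 0.14.

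Genes known to be induced by glucocorticoids were counted as a further list. Of 12 glucocorticoid-induced genes, all were tested and 1 was called, *Pdk4*, which encodes a pyruvate dehydrogenase kinase. It fell from 72.1, 62.0 and 65.4 CPM in GR+/+ to 25.1, 21.1 and 23.8 CPM in GRdim/dim libraries, a log2 fold change of -1.51 (standard error 0.17, edgeR adjusted *p* = 0.00931). Before adjustment, 5 of the 12 were lower at a *p*-value under 0.05 (4.68% of all genes) and 1 was higher (4.91% of all genes), and the median log2 fold change was -0.48. DESeq2, which called 1.71% of all genes in either direction, called 5 of the list, *Pdk4*, *Fkbp5*, *Klf9*, *Tsc22d3* and *Zbtb16*, all lower. Several of these genes were already known to be lower in the same lungs when the list was made, so the list is not independent evidence of its direction. Without GR+/+ replicate 1 or 2, *Pdk4* just missed the threshold (adjusted *p* = 0.0506 and 0.0507 from edgeR), with log2 fold changes of -1.45 and -1.55.

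The order of levels holds for the deposited gene lengths only, which can exceed the longest transcript in GENCODE M21. They are 4251 against 1978 bases for *Hsd11b1* and 2217 against 2000 for *Ptges3*. For *Ncoa2* they are 15642 against 8171 bases and for *Ncor1* 12811 against 9037. An order per kb of transcript was not computed and can differ. Ordered by mean CPM per kb of gene length, *Ptges3* was the highest of the 9 genes (76.9 ± 11.7 in GR+/+ and 95.5 ± 6.31 in GRdim/dim lungs, CPM per kb, SD, n = 3 each). *Hsd11b1* followed with 63.7 ± 4.38 and 48.9 ± 6.20 CPM per kb and *Fkbp4* with 51.1 ± 10.4 and 51.9 ± 19.8 CPM per kb. These 2 did not differ beyond their spread, since their ranges over libraries overlapped and *Hsd11b1* was the higher in only 3 of 6 libraries. *Nr3c1* came next, above *Ncor1*, whose 6 libraries ranged from 9.03 to 15.1 CPM per kb. The ranges of *Ncoa1* (6.14 ± 0.908 and 5.03 ± 1.69 CPM per kb) and *Ncoa2* (4.48 ± 0.552 and 4.66 ± 1.23 CPM per kb) overlapped, and so did those of *Nr3c2* and *Hsd11b2* (2.07 ± 1.48 and 1.37 ± 0.760 CPM per kb). The other 5 pairs of neighbors in this order did not overlap in their ranges over the 6 libraries.

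**Figure D4:**
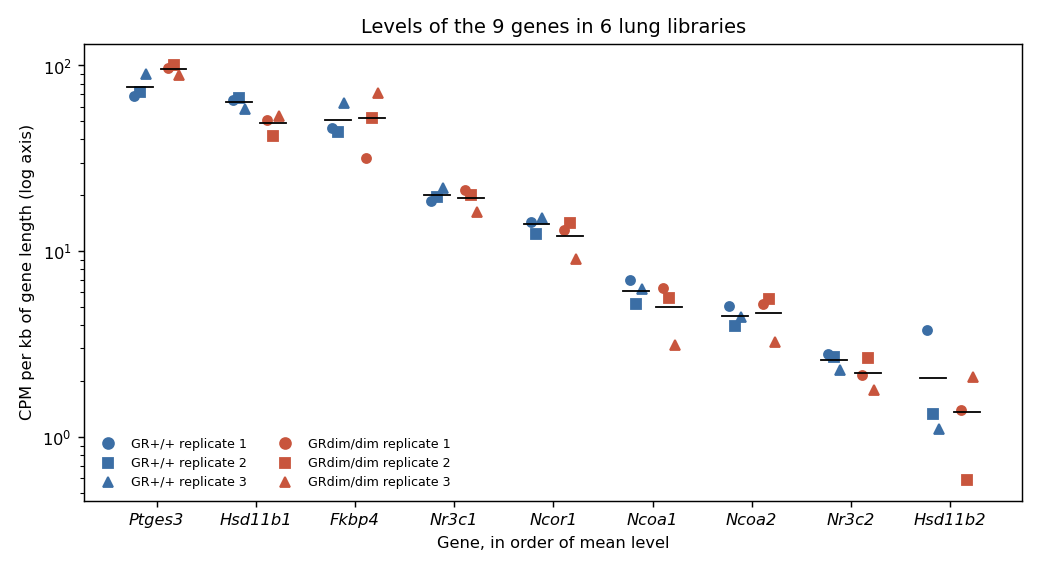
Level of the 9 genes in CPM per kb of gene length, on a log axis, for each of the 6 libraries, with the mean of each genotype as a black line. *Ptges3* lies between 68.8 and 101 CPM per kb and *Hsd11b2* between 0.587 and 3.77. *Hsd11b1* is the only gene of the 9 without overlap between genotypes, where 14.8% of all genes tested showed none.

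Genes with the most similar pattern over the 6 libraries were taken from the 10686 other genes with a mean of at least 10 CPM, by the root mean square difference of centred log2 CPM. For *Nr3c1* they were *Tmem87a*, *Sestd1* and *Ddx46*, with differences of 0.02, 0.03 and 0.03, where the median gene differed by 0.27. *Tmem87a* had 68.2 ± 5.12 CPM in GR+/+ and 64.0 ± 8.35 CPM in GRdim/dim lungs (SD, n = 3 each). For *Nr3c2* they were *Mfhas1*, *Ubr2* and *Nfrkb* (0.05, 0.05 and 0.06, median gene 0.32). For *Hsd11b1* they included *Coq4* and *Il15ra* (0.04 and 0.06, median gene 0.33). Among so many genes and 6 libraries some match closely, and the names are given as a description only.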

How the data were processed

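The deposited table holds raw counts of reads for each gene in 6 lung libraries, whole numbers that the authors neither normalized nor pooled, with gene lengths and coordinates. The submitters' processing notes name mm10 and DESeq2. The aligner, the counting tool, the annotation and the use of strand are not given in the sources used here. Of the 54532 genes, 54495 were found in GENCODE M21 and 53585 had the same coordinates and strand there. Groups and numbers come from the sample titles, each library is one mouse, and no library was left out. No 2 libraries were identical, and pairs of one genotype differed by more than sampling noise (chi-square per degree of freedom 19.2 to 62.9).

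Genotypes were compared in R 4.3.3 with edgeR 4.0.16 (TMM, filterByExpr, robust glmQLFit, glmQLFTest) over 16568 genes. DESeq2 1.42.0 on the same genes gave adjusted *p*-values for 15917. The 95% intervals use the standard error and degrees of freedom of the edgeR fit. Log2 CPM used a prior count of 2. Exact permutation tests were two-sided over the 6 libraries. Named were the 9 genes, in each pathway list the genes called and the up to 3 with the smallest unadjusted *p*-value, and the 3 most similar genes of *Nr3c1*, *Nr3c2* and *Hsd11b1*; *Tsc22d3*, *Zbtb16* and the genes with few or no reads were named after their values had been seen. Some genes that this rule names are not reported here. Members, lists and tests were chosen with earlier results of these data known. Promoter windows are from RefSeq (GRCm38.p6), where 6 of the 9 genes were matched and used. At a depth of 15687734 to 32082940 reads, each of the 9 genes had at least 26 reads in every library. The limit given for a count of 0 covers counting error only. Alternatives were RLE scaling, 2 other filters, DESeq2, a replicate block, a sex-linked covariate, each library left out and, added later, removal of the gene length trend.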

Additional observations from a re-analysis of the deposited data

How the results depend on the processing

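The count of 0 called genes among the 9 was the same under all alternatives. The log2 fold changes of *Nr3c2*, *Hsd11b1*, *Ptges3*, *Ncoa1* and *Ncor1* kept their direction under all 13 alternatives, and those of the other 4 genes did not. *Fkbp4* turned to -0.034 with the replicate block and -0.044 with the gene length trend removed. With libraries left out in turn, *Fkbp4* ranged from -0.28 to 0.28, *Ncoa2* from -0.080 to 0.26, *Nr3c1* from -0.13 to 0.057, *Hsd11b2* from -1.05 to 0.16 and the list gene *Esr2* from -0.76 to 0.0039. Over all genes, 28 were called, against 522 with no filter on low counts, 272 with DESeq2 and 4 to 22 with a library left out (4 without GR+/+ replicate 2, 12 without GR+/+ replicate 1, 17 without GR+/+ replicate 3, 14 without GRdim/dim replicate 3). In the pathway lists, 1 of 81 genes tested was called, against 7 with no filter, 5 with DESeq2, 2 with the sex-linked covariate and 0 to 1 with a library left out; 0 remained without GR+/+ replicate 1 or 2. With libraries left out, the difference in the log2 ratio of *Hsd11b1* to *Hsd11b2* ranged from -0.36 to 0.46. Without division by length, 5 instead of 3 neighboring pairs of the 9 genes overlapped. The cause was not tested. Deviations of libraries with the same replicate number correlated at 0.22, 0.04 and -0.05 for numbers 1, 2 and 3. GR+/+ replicates 1 and 2 correlated best with the GRdim/dim library of their own number, and replicate 3 did not. Both libraries of number 1 were male and both of number 2 female, so a pairing by number cannot be told apart from sex there. The replicate block gave 34 calls and called none of the 9. Of the 9 genes *Hsd11b2* had the fewest reads, 26 to 116 per library.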
